A study of Homo sapiens with 19 samples.

Results

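Distal regions marked in OCI-AML3 and Molm13 and in neither HL-60 nor K562 numbered 5834, out of 37606 OCI-AML3 H3K27ac regions. They were chosen on measured peaks: an OCI-AML3 region on chromosomes 1 to 22 or X was taken when it lay more than 2 kb from every GENCODE transcription start site (TSS), shared at least 1 bp with a Molm13 region, and shared no base with a HL-60 or K562 region. Of 21017 distal OCI-AML3 regions, 10491 were also present in Molm13, and 5834 of these were absent from both other lists. Members made up 27.8% of the distal regions and 55.6% of those shared with Molm13 (95% Wilson interval 54.7 to 56.6). These counts follow from the selection and were not tested.

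Acetylation of lysine 27 of histone H3 (H3K27ac) marks active enhancers and promoters. It was profiled by chromatin immunoprecipitation and sequencing (ChIP-seq) in 4 human leukaemia cell lines, with 1 library per line and no replicates. The 3 lines HL-60, Molm13 and OCI-AML3 come from patients with acute myeloid leukaemia (AML), and K562 from a chronic myeloid leukaemia in blast crisis. HL-60 and Molm13 were untransduced, whereas OCI-AML3 and K562 carried lentiviral dCas9-KRAB-mCherry and an sgRNA vector without a guide that also expressed BFP, and had been sorted for both reporters. Vector and cell line therefore cannot be told apart between the transduced and untransduced lines. A list of dCas9 peaks came from K562 cells with the same dCas9-KRAB and 4 sgRNAs against LTR2B, a family of retroviral long terminal repeats. The HL-60 list was the shortest, with 20814 peaks, whereas the other 3 H3K27ac lists held 35206 to 37606. Read depth is unknown, and the part of list length or depth in an absent peak was not tested.

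Enhancers lie away from promoters, carry H3K27ac when active, and are the most cell-type-restricted part of the active genome. In myeloid cells they are bound by lineage factors such as PU.1, C/EBP, RUNX1 and IRF8, which switch on receptors, enzymes and antigen presentation genes of monocytes and granulocytes. Molm13 carries a fusion of KMT2A, and OCI-AML3 carries mutant NPM1. Both lesions are known for keeping the HOXA genes and their cofactors MEIS1 and PBX3 active. As a check of the lines, promoters of lineage genes were set beside those of all protein-coding genes, of which 57.8% had a promoter peak in OCI-AML3, 54.1% in Molm13, 44.8% in HL-60 and 56.1% in K562. Of 40 monocyte and macrophage receptor genes, 29 had one in OCI-AML3 (72.5%), 25 in Molm13 (62.5%), 10 in HL-60 (25%) and 7 in K562 (17.5%). Of 28 erythroid and megakaryocyte genes, 18 had one in K562 (64.3%) and 3 or 4 in each AML line. The Molm13 share of the former and the K562 share of the latter lay near those of all genes, and the low shares stood further from them.

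The sequences of 7 members are shown because they lie near genes described later and hold 2 or more different words recognised by myeloid factors. Each is a 200 bp window inside a member, on the plus strand of hg38, outside annotated exons, and named for the nearby listed gene. Capitals mark matches, on either strand, to GAGGAAGT for PU.1, TTGCNNAA for C/EBP, TGTGGTT for RUNX, TGATTTAT for HOX-PBX, TTGACAG for MEIS, TGANTCA for AP-1, GGAANTGAA for a joint PU.1 and IRF site, AACNGCC for MYB and CNAGGGGGC for CTCF. Other words counted later are AGATAAG for the erythroid GATA factors, GAAANTGAA for IRF, GGANTTTCC for NF-kB, GGGCGGGG for SP/KLF and ACCGGAAGT for ETS. A match is a match of letters and shows no binding.
ALOX5AP, chr13:30696794-30696993: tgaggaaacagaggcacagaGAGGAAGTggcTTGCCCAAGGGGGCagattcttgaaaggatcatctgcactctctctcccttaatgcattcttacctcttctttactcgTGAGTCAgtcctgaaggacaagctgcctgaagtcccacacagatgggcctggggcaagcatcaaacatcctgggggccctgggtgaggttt
SAMHD1, chr20:36957952-36958151: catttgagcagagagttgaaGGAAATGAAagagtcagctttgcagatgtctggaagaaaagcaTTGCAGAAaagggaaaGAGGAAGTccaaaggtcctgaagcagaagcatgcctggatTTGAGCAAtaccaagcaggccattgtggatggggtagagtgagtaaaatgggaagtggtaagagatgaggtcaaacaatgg
CCR1, chr3:46215227-46215426: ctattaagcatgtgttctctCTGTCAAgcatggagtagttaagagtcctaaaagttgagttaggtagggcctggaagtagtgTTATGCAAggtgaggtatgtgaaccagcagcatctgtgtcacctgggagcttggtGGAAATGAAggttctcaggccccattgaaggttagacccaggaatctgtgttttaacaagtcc
IRF8, chr16:85943840-85944039: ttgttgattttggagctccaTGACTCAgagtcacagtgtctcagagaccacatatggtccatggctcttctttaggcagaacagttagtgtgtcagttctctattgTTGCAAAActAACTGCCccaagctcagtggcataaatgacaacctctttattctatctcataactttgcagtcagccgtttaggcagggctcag
GFI1, chr1:92515270-92515469: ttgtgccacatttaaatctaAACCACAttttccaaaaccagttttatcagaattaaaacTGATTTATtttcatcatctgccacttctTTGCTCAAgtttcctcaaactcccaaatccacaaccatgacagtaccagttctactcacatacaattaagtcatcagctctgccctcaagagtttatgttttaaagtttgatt
FLT3, chr13:28047112-28047311: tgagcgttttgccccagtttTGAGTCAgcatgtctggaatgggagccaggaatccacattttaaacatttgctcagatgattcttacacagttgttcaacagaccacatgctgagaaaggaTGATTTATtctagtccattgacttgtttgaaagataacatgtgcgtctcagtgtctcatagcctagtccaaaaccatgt
PBX3, chr9:125892683-125892882: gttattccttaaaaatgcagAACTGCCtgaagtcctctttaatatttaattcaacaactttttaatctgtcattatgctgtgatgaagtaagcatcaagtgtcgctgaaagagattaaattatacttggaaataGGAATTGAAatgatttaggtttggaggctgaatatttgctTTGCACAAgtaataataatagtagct

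The ALOX5AP window held the PU.1, C/EBP, CTCF and AP-1 words, and its C/EBP and CTCF words shared bases. It lay between genes, 15099 bp from the nearest ALOX5AP TSS for its member region. The SAMHD1 window was also intergenic. The CCR1 window lay in an intron of the neighbouring CCR3 gene, the GFI1 window in an intron of EVI5, and the FLT3 and PBX3 windows in introns of those genes. The IRF8 window lay in an intron of an unnamed annotated gene, ENSG00000285163.

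Members were of middling strength in both lists. Fold enrichment is the authors' ratio of ChIP signal to local background for each peak, and it was compared only within a list. The median member stood at 2.93 in OCI-AML3 (lowest 1.32, highest 8.68) and at 3.71 in the strongest overlapping Molm13 peak (lowest 1.35, highest 11.6). Those medians correspond to the 49.0th and 47.1st percentile of the respective lists, which include peaks near TSSs. Among all distal OCI-AML3 regions the median fold was 2.75, below that of members. The OCI-AML3 q-value was below 0.001 for 41.1% of those regions and 56.8% of members. Only 32 members (0.549%) fell in the highest 10% of both lists, while 1721 (29.5%) lay above both list medians and 2029 (34.8%) at or below both. The authors' q-value was below 0.001 in both lists for 1953 members (33.5%). Across the 5834 members the folds of the 2 lists had a Pearson r of 0.454 and a Spearman rho of 0.391, given as a description, since members in one place can share a Molm13 peak (171 did).

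The stronger a shared distal region was in OCI-AML3, the more often another line had it too. Among the 10491 regions shared with Molm13, the share lacking both HL-60 and K562 fell from 66.5% in the lowest quartile of OCI-AML3 fold to 62.1%, 55.6% and 38.2% in the highest, where the 95% intervals did not overlap between any neighbouring quartiles. Presence in HL-60 went from 13.9% to 49.9% over the same quartiles and presence in K562 from 23.5% to 33.6%. Regions present in all 4 lines (1168) had a median OCI-AML3 fold of 3.61, those in the 3 AML lines but not K562 (1778) of 3.41, and those of OCI-AML3 alone (8728) of 2.59. Since regions found in more lines were stronger, the strength of the mark and the line it was called in cannot be told apart in these counts.

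The median width of members was 1309 bp (231 to 26899), against 1015 bp for all distal OCI-AML3 regions, 2335.5 bp for regions of all 4 lines and 720 bp for regions of OCI-AML3 alone. Molm13 peaks covered a median of 69.2% of a member, covered 1135 members (19.5%) wholly, and touched 130 (2.23%) by under 100 bp. A HL-60 or K562 peak lay within 5 kb of 1328 members (22.8%), so absence of an overlap did not always mean absence of a neighbouring peak. On the other side of the rule, 45 of 4657 shared distal regions were left out for an overlap of under 100 bp in total with the HL-60 and K562 lists.

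By position, 3168 members (54.3%) lay in introns, 1987 (34.1%) between genes and 679 (11.6%) touched an exon. These shares lay near the 58.1%, 30.4% and 11.5% of all distal OCI-AML3 regions. The median distance was 11790 bp to any TSS and 21869 bp to a protein-coding one, and 1065 members (18.3%) were over 100 kb from a protein-coding TSS. At the 2 kb limit, the regions just inside were near ARHGAP26 (2004 bp, fold 2.37), SEMA6B (2005 bp, 2.81) and LINC01954 (2005 bp, 2.89), and those just outside near HNRNPA3P11 (1998 bp, 3.16), B4GALNT3 (1997 bp, 2.49) and YWHAB (1994 bp, 3.41). A further 2095 regions matched the rule except that they lay within 2 kb of a TSS. GC content was 42.7% at the median, between the 40.4% of regions of OCI-AML3 alone and the 45.9% of regions of all 4 lines.

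Chromosomes differed in how many shared distal regions were members. The share was 72.3% on chromosome 8 (450 of 622) and 68.9% on chromosome 13 (244 of 354), against 42.6% on chromosome 19 (141 of 331) and 55.6% over all. Among all distal OCI-AML3 regions, whether or not Molm13 had them, members made up 28.1% on chromosome 8 and 30.4% on chromosome 13, close to 27.8% over all chromosomes, and 31.1% on chromosome 19, so that the order of these chromosomes turned round.

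The 10 members strongest in both lists, by the lower of their 2 percentile ranks, were led by a 3134 bp region in a long non-coding RNA gene, LINC02237, at 8.68 in OCI-AML3 and 10.9 in Molm13. The nearest protein-coding gene to it was CSMD3, 785050 bp away, which had no promoter peak in any line. The second, near RNF138, a ubiquitin ligase gene, had folds of 6.84 and 10.3, and the third, near DNAJC5B, of 5.77 and 10.1. DNAJC5B had a promoter peak in OCI-AML3 and Molm13 and in neither other line. The same promoter pattern held at ASGR2, a subunit of the hepatocyte asialoglycoprotein receptor that lies beside the macrophage lectin gene CLEC10A (4.99 and 9.04). In contrast, RNF138, SUCLA2, an enzyme subunit of the citric acid cycle (5.17 and 10.0), and SOCS5, a cytokine signalling inhibitor (6.25 and 8.88), had promoter peaks in all 4 lines. The remaining 4 had CPQ, GOLGA8O, KCND2 and HNF4G as their nearest protein-coding genes, at 5.11 to 5.89 in OCI-AML3 and 8.93 to 9.91 in Molm13. Some of these genes were far off. The nearest protein-coding TSS lay 210729 bp from the KCND2 region, 187612 bp from the HNF4G region and 231898 bp from the SUCLA2 region.

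The 3 widest members lay in introns of PBX3, NCAM2 and EFNA5. PBX3, the HOX cofactor, held a member of 26899 bp at 3.93 in OCI-AML3, over which Molm13 had 5 separate peaks, the strongest at 6.39. NCAM2, a neural adhesion molecule, held one of 21254 bp (3.39 and 4.57), and EFNA5, an ephrin ligand, one of 18280 bp (3.33 and 4.74). Molm13 peaks covered 63.2%, 66.4% and 48.1% of these 3 regions.

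Some members sat together, but no such counts are given for other distal regions, so whether members group more was not tested. Joined across gaps up to a limit between 12 and 13 kb, 1542 members (26.4%) fell into 684 groups of 2 or more, and 412 (7.06%) into 119 clusters of 3 or more. The largest held 8 members each. One spanned 56603 bp of NCAM2 introns, with OCI-AML3 folds of 2.83 to 3.51 and Molm13 folds of 3.28 to 4.57. The other spanned 39376 bp of chromosome 4, more than 500 kb from any protein-coding TSS and with TENM3, a synaptic adhesion gene, as the nearest (2.76 to 3.49 and 3.47 to 9.49).

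Next came 3 clusters of 6 members. They lay in PRUNE2 and the neighbouring GCNT1, a glycosyltransferase gene (2.48 to 4.05 in OCI-AML3 and 3.47 to 8.07 in Molm13), in INHBA-AS1 beside INHBA, which encodes a subunit of activin A (2.32 to 3.84 and 3.38 to 7.67), and in SASH1, a signalling scaffold gene (2.43 to 3.01 and 3.07 to 8.06). A cluster of 5 lay around RUBCNL, an autophagy gene, with folds of 2.62 to 3.64 and 3.36 to 4.79. Of these 6 clusters, the one at PRUNE2 held 3 HL-60 peaks between its members, and the other 5 held no HL-60 or K562 peak within their span.

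Genes of the monocyte and cytokine receptor lists were near members more often than protein-coding genes in general. Over 19962 protein-coding genes, 39.1% had a member within 100 kb of one of their TSSs, and 4769 of the 5834 members lay that close to some protein-coding gene. Members lay near 24 of 32 genes of cytokine receptors and signalling (75%), 27 of 40 monocyte and macrophage receptors (67.5%), 19 of 32 monocyte and macrophage effectors (59.4%), 13 of 22 leukaemia and stem cell transcription factors (59.1%), 10 of 17 cell cycle and survival genes (58.8%) and 13 of 23 myeloid transcription factors (56.5%). The lists with shares below or near 39.1% were lymphoid genes (10 of 23, 43.5%), primary granule proteins (2 of 9, 22.2%), erythroid and megakaryocyte genes (6 of 28, 21.4%), liver and epithelial genes (3 of 16, 18.8%) and the HOXA-MEIS programme (3 of 24, HOX genes included). With q below 0.001 in both lists, leukaemia and stem cell factors turned to the other side, with 3 of 22 genes against 16.8% of all protein-coding genes. No test was made on these lists, and neighbouring genes of a list can share a member.

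The 4 kinds of distal region differed around the monocyte receptor list. Regions of all 4 lines lay near 7 of its 40 genes (17.5%, against 15% of all protein-coding genes), regions of the 3 AML lines near 16 (40%, against 16.2%), and regions of OCI-AML3 alone near 22 (55%, against 42.7%). For cytokine receptors and signalling genes the numbers were 13, 14 and 21 of 32 (40.6%, 43.8% and 65.6%). Regions of OCI-AML3 alone exceeded members for myeloid transcription factors (19 of 23, 82.6%), cell cycle and survival genes (11 of 17, 64.7%) and granule proteins (8 of 9, 88.9%). They also did for the erythroid and the liver lists. Their share equalled that of members for leukaemia factors and the HOXA-MEIS programme. It was lower for monocyte effectors, MHC class II and lymphoid genes.

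Among monocyte receptors, CCR1, a receptor for inflammatory chemokines, had 6 members within 100 kb, at 2.60 to 4.47 in OCI-AML3 and 2.82 to 4.10 in Molm13. The strongest 2 lay in introns of CCR3, at 13819 bp (4.47 and 3.71) and 4119 bp (3.57 and 4.10) from CCR1. CD180, a Toll-like receptor homologue, had 5 members, from 2.51 to 4.02 and from 4.31 to 8.09. CD86, the co-stimulatory ligand of T cells, had 5, of which 4 lay in its own introns with OCI-AML3 folds over the 5 of 2.3 to 3.06 and Molm13 folds of 3.0 to 5.40. CLEC10A, a lectin of macrophages and dendritic cells, had 4, one of them the strong region beside ASGR2, although its own promoter had no peak in any line.

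Promoters of several of these receptors followed the pattern of the members. CCR1, CCR2, CD180, CD86, CX3CR1, TLR2, CD36, CSF1R, SIGLEC7, MSR1, LILRB1 and LILRB4 had a peak within 500 bp of a TSS in OCI-AML3 and Molm13 and in neither HL-60 nor K562. That is 12 of 40, against 549 of 19962 protein-coding genes (2.75%). LILRB1 and LILRB4 had no member within 100 kb. CD14, FCGR3A, TLR8 and CLEC4E had members nearby but no promoter peak in any line.

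Among effectors of monocytes, SAMHD1, a nucleotide hydrolase that limits retroviruses, had 4 members (2.59 to 4.54 and 3.71 to 6.03), of which 3 lay in the neighbouring RBL1 gene. PLAUR, the urokinase receptor, had 4 (2.19 to 2.75 and 3.23 to 5.58). LYZ, which encodes lysozyme, had 3 members (2.77 to 3.02 and 3.01 to 4.00), as had ALOX5AP, needed for leukotriene synthesis (2.59 to 4.35 and 3.24 to 7.76). The promoters of SAMHD1 and PLAUR had a peak in all 4 lines, that of LYZ in all but HL-60, and that of ALOX5AP in all but K562.

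Cytokine receptors were led by FLT3, the receptor tyrosine kinase of early progenitors, with 8 members: 4 within the gene at 2.29 to 3.04 in OCI-AML3 and 3.25 to 3.69 in Molm13, 1 upstream, and 3 in introns of PAN3. None of the 8 exceeded 3.04 in OCI-AML3. CSF2RA, a chain of the GM-CSF receptor, had 5 members (2.44 to 4.49 and 3.46 to 5.2). SOCS3, a feedback inhibitor of cytokine signalling, had 5 (2.3 to 2.86 and 3.33 to 5.39), as had IFNGR1, a chain of the interferon gamma receptor (2.44 to 4.00 and 2.98 to 4.31). FLT3 and CSF2RA promoters were marked in the 3 AML lines, the SOCS3 promoter in all lines but HL-60, and the IFNGR1 promoter in all 4.

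For MHC class II, 9 of 11 genes (81.8%) had a member within 100 kb, against 39.1% of all protein-coding genes. Only 8 different members stood behind these 9 genes, and 5 of the members lay near CIITA, the master regulator of the class. Regions of OCI-AML3 alone lay near 8 of the 11 genes (72.7%, against 42.7% of all). The CIITA members stood at 2.43 to 3.45 in OCI-AML3 and 3.21 to 5.94 in Molm13. The strongest in OCI-AML3 lay 2226 bp from a CIITA TSS (3.45 and 5.14). HLA-DMA and HLA-DMB, which load peptides, shared 1 member at 3.68 and 4.02, and HLA-DRB1 had 1 at 2.55 and 2.93. CIITA and HLA-DMB promoters were marked in OCI-AML3 and Molm13 only. The HLA-DMA promoter was marked in all 4 lines and that of CD74 in the 3 AML lines. HLA-DRA, HLA-DRB1, HLA-DQA1, HLA-DQB1, HLA-DPA1, HLA-DPB1 and HLA-DOA had no promoter peak in any line.

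Of the myeloid transcription factors, IRF8, which directs monocyte and dendritic cell fate, had 4 (2.63 to 3.79 and 3.19 to 4.82), and its promoter was marked in OCI-AML3 and Molm13 only, as was that of KLF4, a monocyte factor with 2 members. GFI1, a transcriptional repressor that acts in granulocyte development, had 3, at 4.75, 3.9 and 2.72 in OCI-AML3 and 5.09, 4.88 and 4.07 in Molm13. RARA, the retinoic acid receptor, had 2 (2.20 and 2.71 in OCI-AML3), and BATF3, a dendritic cell factor, had 2 (2.70 and 3.11).

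In the HOXA-MEIS list, members gathered at the cofactor genes and not at HOX genes. PBX3 had 5 members (2.80 to 3.93 and 2.88 to 6.39), all in its introns, together with 17 regions of OCI-AML3 alone. MEIS1 had 4 (2.66 to 4.17 and 3.03 to 5.58). None of the HOX genes of the list had a member within 100 kb, whereas the promoters of HOXA3, HOXA7, HOXA9, HOXA10, HOXA11, HOXA13 and PBX3 were marked in OCI-AML3 and Molm13 only. The MEIS1 promoter was also marked in K562.

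Of the 22 leukaemia and stem cell factors, 9 had no member within 100 kb. IKZF1, BCL11A, MYC, LYL1, ERG and GATA2 had only 1 member each, 17968 to 94794 bp away. RUNX1, a haematopoietic master factor, had 6 (2.48 to 4.28 and 3.08 to 3.72), all in its introns, and SATB1, a chromatin organiser, had 6 (2.51 to 4.11 and 2.73 to 7.04), of which 3 overlapped the gene and the strongest lay 56301 bp away in an intron of TBC1D5. ETV6 had 5, one of 8336 bp at 3.39 and 3.21, and RUNX2, the bone factor, had 5 in a row of introns (2.39 to 3.08 and 2.99 to 3.81). In this list no promoter was marked in OCI-AML3 and Molm13 only.

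Of the cell cycle and survival list, BCL2, the inhibitor of apoptosis, had 9 members over both sides of its TSSs (2.31 to 3.85 and 2.96 to 4.52). CDKN1A, the p53 target that stops the cycle, had 8 (2.01 to 3.51 and 2.92 to 6.34), and CDK6, a kinase of early G1, had 6 (2.55 to 3.74 and 3.34 to 4.72). JMJD1C, a demethylase-like protein, had 6, one of which reached 8.58 in Molm13 but 2.58 in OCI-AML3. The promoters of this list were widely marked, with 17 of 17 genes in OCI-AML3 and Molm13, 14 in HL-60 and 16 in K562.

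The other lists had 3 to 13 members nearby each. RNASE3 and CTSG, granule proteins of eosinophils and neutrophils, had 3 each, and the CTSG members lay at least 82168 bp away. One of them, 9491 bp wide, stood at 5.01 in OCI-AML3 and 3.23 in Molm13. Of erythroid and megakaryocyte genes, TFRC, the transferrin receptor, had 2 members, and VWF and ITGA2B had 1 each (3.57 and 3.01 in OCI-AML3). Among lymphoid genes GNLY had 3, MS4A1 and EBF1 2 each, and RAG1 1 within TRAF6. CDH1, CLDN4 and SERPINC1 were the 3 liver and epithelial genes with a member, at 2.37 to 3.32.

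Across all protein-coding genes, the more members lay nearby, the more often the promoter had the same pattern of lines. With no member within 100 kb, 1.80% of 12157 genes had a promoter peak in OCI-AML3 and Molm13 only. The share was 2.55% of 4748 genes with 1 member, 5.18% of 1854 with 2, 6.51% of 983 with 3 or 4, and 22.3% of 220 with 5 or more (95% interval 17.3 to 28.2). OCI-AML3 promoter peaks lie outside the members, but a wide Molm13 peak could reach both a member and a promoter. All these peaks come from the same 4 libraries that chose the members. The shares are therefore a description of how calls go together along the genome.

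The share also went up with the number of regions of OCI-AML3 alone and, up to 3 or 4 regions, of the 3 AML lines. For regions of all 4 lines the share showed no such rise, at 2.77% with 0 regions, 2.53% with 1 and 3.31% with 2. With regions of the 3 AML lines it was above that for members at lower counts, at 3.49% with 1 region, 8.19% with 2 and 9.29% with 3 or 4. With 5 or more it was 2 of 22 genes, and its interval (2.53 to 27.8) held the 22.3% of members. With 5 or more regions of OCI-AML3 alone, 10.5% of 448 genes had the pattern (8.0 to 13.7). With 3 or 4 regions of all 4 lines it was 1 of 104. Taking the nearest protein-coding gene of each region instead, 232 of 3457 genes nearest to members had the pattern (6.71%), against 6.53% for regions of the 3 AML lines, 5.11% for OCI-AML3 alone and 2.94% for all 4 lines, where the intervals of the first 2 overlapped widely.

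Genes with the most members nearby were NCALD, a neuronal calcium sensor (16), FRY (14), ZNF521, a zinc finger factor of progenitors (12), and PALM2AKAP2 and SASH1 (11 each). Promoters of NCALD, ZNF521, PALM2AKAP2 and SASH1 were marked in OCI-AML3 and Molm13 only, and that of FRY in the 3 AML lines. At ARHGAP26, BAZ2B and PAN3, with 10 members each, the promoter was marked in all 4 lines. RIPOR2, with 10, had no promoter peak in any line.

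Short sequence words differed little between members and the 15183 other distal OCI-AML3 regions. In 1000 bp windows centred on the regions, and counting both strands, the PU.1 word was present in 13.6% of members (95% interval 12.7 to 14.5) and 12% of the others. The C/EBP word was present in 53% (51.7 to 54.2) and 51.5%, and the joint PU.1 and IRF word in 12.7% (11.9 to 13.6) and 10.7%. The GATA word went the other way, at 13.6% (12.8 to 14.5) and 15%. Intervals of members and the others did not overlap for the PU.1 word and the joint word, and overlapped for C/EBP and GATA. Among the sets pooled in the others, the PU.1 share lay below the member interval only in regions of OCI-AML3 alone, at 10.6% (9.96 to 11.2). It was 15% (13.4 to 16.8) in regions of the 3 AML lines, 14% in regions of all 4 lines and 13.5% in the rest. The joint word was less frequent in each of these sets, at 8.73% to 11.5%. For that word the interval of OCI-AML3 alone (10.9 to 12.2) overlapped that of members.

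For the other lineage words the shares were 23.1% and 23.5% for RUNX, 28.7% and 28.1% for MYB, 36.7% and 35.7% for AP-1, and 13% and 13.1% for IRF. HOX-PBX stood at 6.29% and 6.01%, and MEIS at 12.4% and 12.3%. The remaining words gave 4.1% and 3.61% for NF-kB, 2.3% and 2.32% for CTCF, 2.93% and 3.6% for SP/KLF, and 0.206% and 0.263% for ETS. The joint PU.1 and IRF word and the IRF word can cover some of the same bases, and regions are not replicates, so these intervals cover counting error only.

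Against regions of all 4 lines, some words differed more and others less. The SP/KLF word was present in 9.50% (95% interval 7.95 to 11.3), against 2.93% of members (2.53 to 3.40), and the HOX-PBX word in 3.51% (2.60 to 4.73), against 6.29% (5.70 to 6.94). The C/EBP word was present in 44.8% and the joint PU.1 and IRF word in 8.73% of them. The PU.1 word, at 14%, and the AP-1 word, at 36.3%, were as frequent there as in members within their intervals. Regions of all 4 lines were richer in GC, and the part of base composition in these shares was not tested. Within the members, shares were compared between the lowest and the highest quartile of OCI-AML3 fold. The HOX-PBX word went from 4.80% to 7.20%, the IRF word from 10.2% to 15.5% and the C/EBP word from 47.6% to 55.2%. The joint PU.1 and IRF word went from 10.9% to 13.9%, the GATA word from 13% to 15.4% and the PU.1 word from 12.8% to 14.1%. MEIS went from 11.4% to 13.2% and MYB from 29.1% to 29.5%, whereas RUNX went from 24.5% to 23.1% and AP-1 from 38.5% to 36.8%. Median GC was 45.2% in the lowest quartile and 41.2% in the highest.

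Few members lay at sites of the LTR2B guides. A dCas9 peak of guide-carrying K562 cells overlapped 8 of the 5834 members (0.137%), against 22 of all distal OCI-AML3 regions (0.105%), and 15 members held a guide site with at most 1 mismatch (0.257%), against 14 of the other distal regions (0.0922%). Members were also wider than distal regions in general, and the part of width in these counts was not tested. All these members lacked an H3K27ac peak in K562 by the rule, in cells without a guide. Examples of sites under the strongest dCas9 peaks are shown to place the guides, in hg38, in the 5′ to 3′ direction of the site's strand, with the adjacent PAM in capitals.
NSUN4, sgRNA1 site, chr1:46325874-46325896, plus strand: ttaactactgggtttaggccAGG
NSUN4, sgRNA3 site, chr1:46332103-46332125, plus strand: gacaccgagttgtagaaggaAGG
NLRP2, sgRNA2 site, chr19:54958834-54958856, minus strand: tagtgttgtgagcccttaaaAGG
ALCAM, sgRNA4 site, chr3:104522412-104522434, minus strand: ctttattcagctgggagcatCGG

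The strongest dCas9 peak on a member, with a fold of 19.1, lay 6574 bp from an NSUN4 TSS in a region at 2.62 in OCI-AML3 and 3.61 in Molm13. A second region beside NSUN4, an RNA methyltransferase gene, had a dCas9 fold of 15.1 and stood at 3.17 and 2.76. All 4 guides had a site with at most 1 mismatch in both. The NLRP2 region, in an intron of that inflammasome-related gene, was 2.41 and 3.07 with a dCas9 fold of 13.4, and the ALCAM region, far from that adhesion gene, 3.37 and 3.84 with 8.70. A region near CHRNA6, a nicotinic receptor gene, stood at 2.03 and 3.15 with 8.12. The sites printed match their guides without mismatch. Reads that mapped to several places had been dropped by the authors.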

How the data were processed

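The series holds 19 samples, of which 5 peak lists were used, 4 for H3K27ac and 1 for dCas9, each from 1 library. The other 14 samples were not analysed here. Samples were grouped by their titles. The submitters' processing notes name Trim Galore 0.4.5, Bowtie2 2.3.4, MACS2 2.1.1 and deepTools. Per the study's methods, the authors kept uniquely mapped reads on hg38 and called peaks at q 0.05, using broad calling for H3K27ac. The control library is not given in the sources used here. Each deposited peak carries a score, a fold enrichment (a ratio over local background), a −log10 p-value and a −log10 q-value, all computed by the authors and used here only inside their own list. H3K27ac q-values ran up to 0.0995, above the stated limit. Peak lists hold no read counts, so depth is unknown and intervals cover counting error over regions or genes only.

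TSSs, genes and exons came from GENCODE v44 on hg38. Overlaps needed 1 bp. Genes were tied to members within 100 kb of a TSS and promoters to peaks within 500 bp of one. Words were searched in 1000 bp windows on both strands, and shares are given beside those of the distal regions that are no members. The planned background was all distal OCI-AML3 regions, members included; it was changed after seeing the data, which leaves the direction of each difference as it was and makes each somewhat larger. The 12 gene lists and 14 words, and the members themselves, were chosen with earlier results of these data known. Named were the 10 members strongest in both lists, the 6 clusters with most members, the 3 widest members, up to 4 genes per list with most members, and up to 5 members at dCas9 peaks or guide sites. Other genes were named after their values were seen. A few genes and windows that this rule names are not reported here. Guide sequences came from a reagent list of the study. With 1 library per line no test between lines was made. Shares carry 95% Wilson intervals. Alternatives changed the TSS distance, TSS set, q-value, overlap, absence margin, anchor list, list length, joining and gene distances, promoter window and word window. Computation used matplotlib 3.10.9, pysam 0.24.0, SciPy 1.17.1, NumPy 2.4.6 and pandas 2.3.3 under Python 3.11.15. The overlap code was tested on simulated data and gave the same counts as bedtools 2.31.1.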

Additional observations from a re-analysis of the deposited data

How the results depend on the processing

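The number of members held within 1.5 times of 5834 under 6 of 8 alternatives. It was 1953 with q below 0.001 in OCI-AML3 and Molm13, and 2496 with every list cut to the 20733 peaks of the shortest by fold enrichment. The share of shared distal regions that HL-60 and K562 lack, 55.6%, was 57.1% beyond 5 kb of a TSS, 52.5% with protein-coding TSSs only, 42.4% with q below 0.001, 52.7% with 50% of the region covered by Molm13, 43.0% with no HL-60 or K562 peak within 5 kb, and 50.1% with lists of equal length. Clusters of 3 or more, 119 in the report, numbered 9 with q below 0.001, 62 with 50% covered, 20 with lists of equal length, 48 when joined within 5 kb and 243 within 25 kb. The number of gene lists with a share above that of all protein-coding genes, 8 of 12, stayed between 7 and 9. The lists behind it changed: with q below 0.001 leukaemia and stem cell factors fell below it (3 of 22 genes, against 16.8%) and granule proteins stood above it (2 of 9), as they did with equal lists, and lymphoid genes fell below it with 50% covered, with Molm13 regions as the anchor and within 50 kb. Monocyte receptors stood at 37.5% against 20.7% with equal lists and at 25% against 16.8% with q below 0.001. The number of words more frequent in members than in all distal regions, 8 of 14, ranged from 7 to 10, and the promoter share of nearest genes from 6.25% to 7.58%. Depth behind the lists is unknown. No paired analysis was possible because no result comes from a test and every line is represented by a single library.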
